A study of Drosophila melanogaster with 6 samples.

Results

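The salivary glue genes of Drosophila melanogaster were followed across 6 expression arrays of larval proventriculus RNA. The 10 genes were chosen by name: the Sgs genes Sgs1, Sgs3, Sgs4, Sgs5, Sgs7 and Sgs8, and the new glue genes ng1, ng2, ng3 and ng4. All 10 were read by a probe set that the array annotation gives to a single gene, among 11982 such genes on 18769 probe sets. The listing treats the ng genes as early and the Sgs genes as late glue genes. The labels give the larval age only as instar 3, so no order in time was measured here.

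Glue proteins are made by the larval salivary glands late in larval life under control of the steroid hormone ecdysone, stored in secretory granules and expelled at puparium formation, where they fix the pupal case to its support. Sgs1, Sgs3 and Sgs4 encode large mucin-like proteins with many repeats, and Sgs7 and Sgs8 encode short cysteine-rich proteins. The ng genes lie beside Sgs4. The proventriculus is the valve between foregut and midgut, a different organ from the salivary glands, and glue transcripts are known as salivary gland products.

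All 6 arrays carried RNA of proventriculi dissected from larvae of instar 3 of the strain hairy-gal4 UAS-neoGFP, in which Gal4 driven from the hairy gene activates a neoGFP transgene. There were 2 arrays of unchallenged larvae and 2 of larvae challenged with G418, an aminoglycoside toxic to eukaryotic cells. A single array each came from F3 unchallenged larvae without past exposure and from F3 unchallenged larvae with past exposure in F1. The values are RMA expression values on the log2 scale, in which 1 unit is a 2-fold difference. Whether replicate arrays were dissected separately is not in the labels, and p-values here cover only array-to-array spread, possibly technical. In bulk RNA, fewer cells of a type and less RNA per cell cannot be told apart.

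Some arrays stood apart in genes of other tissues. Foregut and proventriculus patterning genes were measured on every array, with dve, a gene needed for proventriculus formation and named after its values were seen, between 10.30 and 11.58. All 6 measured patterning genes were lowest on G418 replicate 1, and the log2 of their summed linear signal was 11.61 there and 12.37 to 12.87 on the other 5 arrays. In lists described below, 6 of 12 ecdysone genes, 4 of 10 O-glycosylation genes, 1 of 8 other salivary gland genes and 0 of 8 Eig71E genes were lowest there. Of 5 measured nervous tissue genes, 4 were highest on unchallenged replicate 2, where the summed level was 10.23 against 6.69 to 7.06 elsewhere. The fat body genes Lsp2, Fbp1, Fbp2 and apolpp had a summed level of 9.76 on the F3 array without past exposure, 13.56 on the one with it and 14.56 to 15.89 on the other 4. Counts of genes highest or lowest on an array have no share over all probe sets beside them here. The part of these differences in the glue gene results was not tested.

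The Sgs genes took 2 widely separated sets of levels. They were high on unchallenged replicate 2 and on both G418 arrays, and low on unchallenged replicate 1 and both F3 arrays. The ng genes did not follow them. ng1, ng2 and ng3 were high on G418 replicate 1 alone, were raised to a smaller degree on unchallenged replicate 1, and lay near their lowest values on the other 4 arrays, including 2 arrays on which the Sgs genes were high. ng4 was dim on all 6.

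Among the mucin-like glue genes, Sgs3 read 8.70 on unchallenged replicate 1 but 13.03 on replicate 2. With G418 it read 14.43 and 13.72, and in F3 larvae 8.18 without and 8.26 with past exposure. Sgs4 read 7.34 and 10.79 unchallenged, 13.94 and 12.71 under G418, and 7.44 and 7.37 in F3, pairs being given in the same order throughout. Sgs1 was at 4.80 and 8.30 on the unchallenged arrays, 10.76 and 10.36 with G418 and 4.48 and 5.15 in F3. For all 3 genes unchallenged replicate 1 stood close to the F3 arrays. Unchallenged replicate 2 lay between those and the G418 arrays, nearest to the G418 arrays for Sgs3 and about midway for Sgs4.

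Sgs5, which encodes another glue protein, read 7.91 and 13.28 in unchallenged larvae, 14.39 and 13.76 under G418, and 8.45 and 8.25 in F3. For Sgs7 the unchallenged values were 9.18 and 13.01, the G418 values 14.26 and 13.48 and the F3 values 8.79 and 9.08. For Sgs8 they were 9.10 and 12.93, 14.30 and 13.18, and 8.53 and 8.50. Thus the small glue proteins' genes split the arrays as the mucin genes did.

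All 6 Sgs genes had the same order at the top, with G418 replicate 1 highest, then G418 replicate 2, then unchallenged replicate 2. Between the lowest of these 3 arrays and the highest of the other 3 the gap ran from 3.15 for Sgs1 to 4.83 for Sgs5 on the log2 scale. Within the 3 low arrays a gene's values spanned between 0.10 and 0.67, and their order differed from gene to gene. On G418 replicate 1 the brightest Sgs signal lay near the top of the array, with 26 probe sets brighter, against 172 on unchallenged replicate 2 and 2639 on unchallenged replicate 1. Whether such bright signals are compressed was not tested.

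The Sgs genes differed in how far the G418 arrays stood above unchallenged replicate 2, the array on which they were already high. G418 replicate 2 exceeded it by 2.06 for Sgs1 and 1.93 for Sgs4, but by 0.68 for Sgs3, 0.48 for Sgs5, 0.47 for Sgs7 and 0.25 for Sgs8. G418 replicate 1 exceeded it by 3.16 for Sgs4 and 2.46 for Sgs1, and by 1.11 to 1.40 for the other 4. The difference between the genes was not tested.

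Of the new glue genes, ng1 read 5.23 and 3.18 in unchallenged larvae, 10.02 and 3.33 under G418, and 3.20 and 3.10 in F3. ng2 was at 4.42 and 3.20 unchallenged, 10.39 and 3.40 with G418, and 3.21 and 3.17 in F3. ng3 was at 7.92 and 5.02 unchallenged, 12.25 and 5.38 with G418, and 5.20 and 5.31 in F3. In all 3 genes G418 replicate 1 was highest and unchallenged replicate 1 second, and G418 replicate 2 lay below unchallenged replicate 1.

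The probes of ng1 and ng2 may share signal, since the annotation gives a further probe set to both genes. That probe set had the same pattern, with 6.10 and 3.93 in unchallenged larvae, 11.23 and 4.08 under G418, and 4.06 and 4.38 in F3. ng4 lay between 3.41 and 3.79, below the lower quartile of all probe sets on every array. ng1 and ng2 lay below that quartile on 4 arrays each, so their values there describe dim signals.

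**Figure D1:**
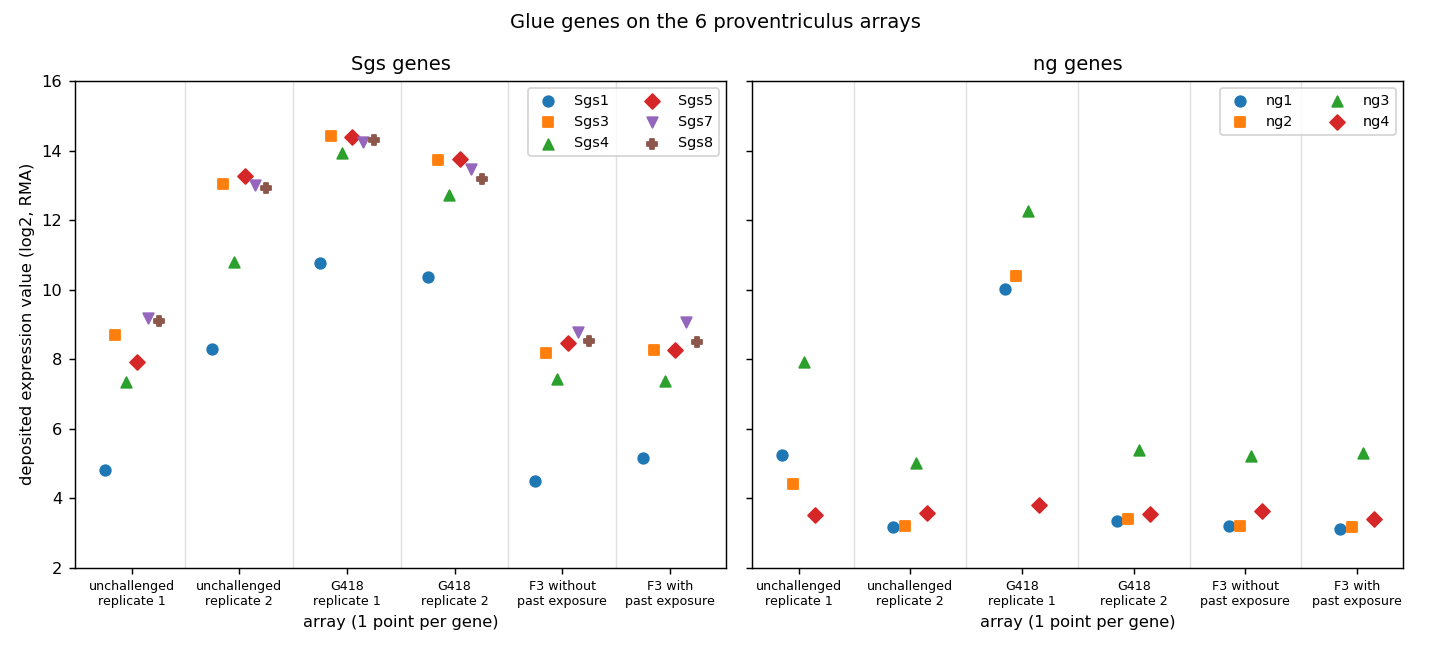
Deposited log2 expression values (vertical axis) of the 6 Sgs genes (left) and the 4 ng genes (right) on each of the 6 arrays (horizontal axis), with 1 point per gene and array. The Sgs genes are high on unchallenged replicate 2 and both G418 arrays, whereas ng1, ng2 and ng3 are high on G418 replicate 1 and ng4 stays between 3.41 and 3.79.

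Of the 10 glue genes, 9 ranged over at least 32-fold (5 log2 units) across the 6 arrays, a size chosen after the values were seen. The share of all probe sets that did so was 0.57%. Ranges were 5.48 to 6.60 for the Sgs genes and 6.92 to 7.23 for ng1, ng2 and ng3 on the log2 scale, while ng4 ranged over 0.38.

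Sgs and ng genes were next compared array by array. Probe sets of different genes cannot be set against each other in level, so each gene was first set against its own value on the F3 array without past exposure. On unchallenged replicate 1 the median Sgs gene differed from that array by 0.35 and the median ng gene by 1.62, with ng1 at 2.02, ng2 at 1.21 and ng3 at 2.72. Thus ng1, ng2 and ng3 were more raised on this array than any Sgs gene, and ng4 was at -0.12. The F3 values of ng1 and ng2 lay below the lower quartile, so their rises start from dim signals. On unchallenged replicate 1 ng2 read 4.42, still below that array's median of 4.95.

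Unchallenged replicate 2 showed the reverse. There the Sgs genes were 3.35 to 4.86 above the F3 array, with a median of 4.31, and the ng median was -0.04. G418 replicate 2 was alike, with Sgs genes at 4.65 to 5.88 and a median of 5.29, beside an ng median of 0.15. On these arrays ng1, ng2 and ng3 were within 0.19 of their F3 values, while every Sgs gene was at least 3.35 above its own.

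G418 replicate 1 alone had both sets high. The Sgs genes were 5.48 to 6.50 above the F3 array, with a median of 6.10, and ng1, ng2 and ng3 were 6.82, 7.18 and 7.04 above it. The F3 array with past exposure differed from the other by medians of 0.03 for Sgs and -0.07 for ng genes. Over all probe sets the median difference from the F3 array lay between -0.07 and 0.01 on each of the other arrays.

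For unchallenged larvae the Sgs shift minus the ng shift was -1.27 on replicate 1 and 4.36 on replicate 2. For G418 larvae it was -0.83 and 5.14. The 2 groups overlapped in this measure. It differed by 5.62 between the unchallenged arrays and by 5.97 between the G418 arrays, while the group means differed by 0.61. Replicates thus differed more than treatments did in the balance of the 2 kinds of glue gene.

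**Figure D2:**
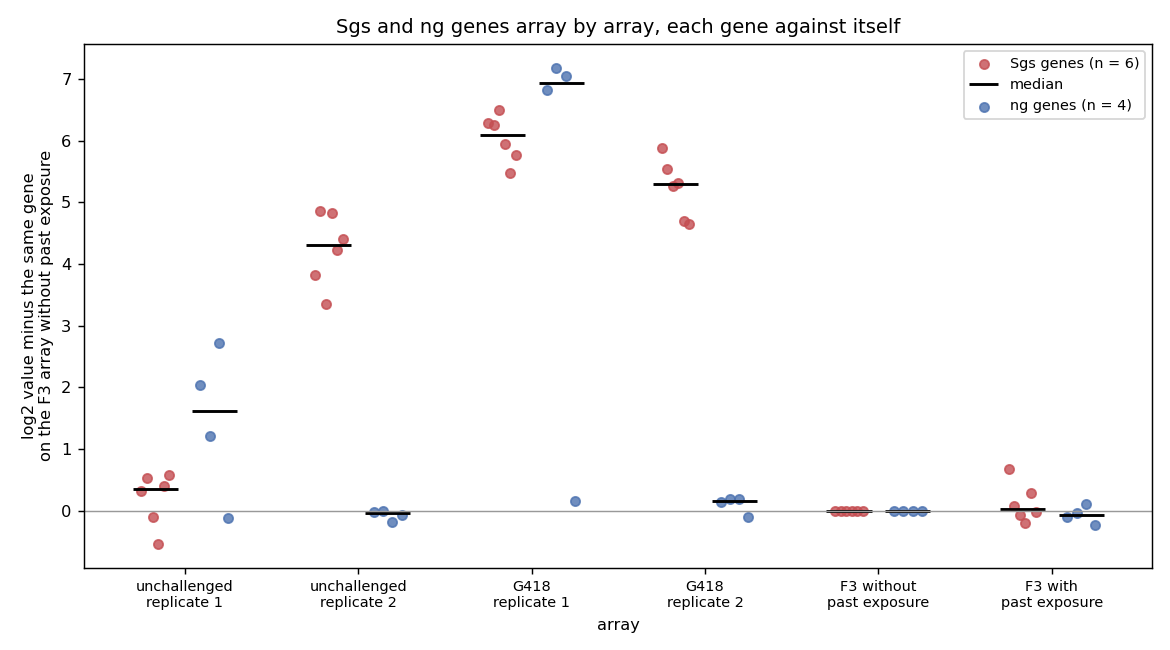
Log2 value of each glue gene minus its own value on the F3 array without past exposure (vertical axis, 0 on that array by construction), by array, for 6 Sgs genes (red) and 4 ng genes (blue), with black bars at the medians. Both kinds except ng4 are high on G418 replicate 1, Sgs genes alone on unchallenged replicate 2 and G418 replicate 2, and on unchallenged replicate 1 the medians are 0.35 for Sgs and 1.62 for ng genes.

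The comparison of G418-challenged with unchallenged larvae asked which RNAs differ under the toxic challenge. All 10 glue genes had a positive log2 change, as did 54.2% of all probe sets, and none passed the test. That share also stands beside the counts of direction given for gene lists below. Sgs4 was at 9.06 ± 2.44 in unchallenged and 13.33 ± 0.87 in G418 larvae (SD, n = 2 arrays each), a log2 change of 4.26 ± 1.27 (SE) or 19.2-fold, with an adjusted p of 0.788 in limma. For Sgs1 the change was 4.01 ± 1.22, or 16.1-fold, with the same adjusted p. The other 4 Sgs genes lay between 6.62-fold for Sgs8 and 11.1-fold for Sgs5, with standard errors of 1.36 to 1.87 log2 units.

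In limma 0 of the 10 glue genes were called at an adjusted p under 0.05, as were 0% of all probe sets. Unadjusted p was under 0.05 for 2 glue genes, Sgs4 and Sgs1, and for 664 probe sets in all. Both G418 arrays lay above both unchallenged arrays for all 6 Sgs genes and for 0 of 4 ng genes. Among all probe sets that share was 21.3%. The median log2 change was 3.34 over the Sgs genes, 2.41 over the ng genes and 0.02 over all probe sets, and with 2 arrays a side the smallest two-sided p of an exact permutation test is 0.333.

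For the Sgs genes the size of the change rested on which unchallenged array was used. Without unchallenged replicate 1 their median change was 0.95, and without unchallenged replicate 2 it was 5.57. Left with unchallenged replicate 2, the array with high nervous tissue genes, the change was 2.26 for Sgs1, 2.54 for Sgs4 and between 0.80 and 1.04 for the remaining 4. None of these passed the test, in which the lone unchallenged array is assumed to vary like the G418 arrays. All 6 kept a positive change with each of the 4 arrays left out in turn. This had to be so, since both G418 arrays lay above both unchallenged arrays for these genes.

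For ng1, ng2 and ng3 the change rested on G418 replicate 1. Their log2 changes were 2.47 ± 2.42 (SE), 3.08 ± 2.45 and 2.34 ± 2.58, with limma adjusted p-values of 0.806, 0.788 and 0.821. Without that array they were -0.88, -0.41 and -1.09. Both G418 arrays were never on the same side of both unchallenged arrays, and ng4 was at 0.12 ± 0.16.

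Replicate arrays of the same group also differed, the unchallenged pair most for the Sgs genes and the G418 pair most for ng1, ng2 and ng3. Unchallenged replicate 2 was at least 2-fold above replicate 1 for all 6 Sgs genes, by 3.44 to 5.36 log2 units, against 4.02% of all probe sets. In the same pair ng1, ng2 and ng3 went the other way, by -2.04, -1.22 and -2.90. G418 replicate 2 was at least 2-fold below replicate 1 for Sgs4 at -1.23 and Sgs8 at -1.12, and for ng1, ng2 and ng3 at -6.69, -6.99 and -6.87. That share was 1.36% of all probe sets.

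The F3 comparison asked whether larvae with past exposure in F1 differ from larvae without it, on 1 array each and with no replicate check. Of the 10 glue genes 4 were higher and 6 lower with past exposure, and 0 differed by 2-fold, against 1.18% of all probe sets. The widest difference was 0.67 for Sgs1, from 4.48 to 5.15. Without past exposure Sgs1 was thus a dim signal, below that array's median of 4.96. Sgs3 differed by 0.08, Sgs4 by -0.07 and ng1 by -0.10. Fat body genes differed between the same arrays, with the larval storage protein gene Lsp2 at 8.95 without and 12.87 with past exposure.

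Genes beside the glue genes were then examined, in the gene order of a reference annotation. In the stretch that holds the ng genes and Sgs4 the measured order was CG14265, ng2, ng3, ng1, ng4, Pig1, Sgs4 and CG10793, with 1 gene before CG10793 not analysed here. CG14265 was also highest on G418 replicate 1 and next on unchallenged replicate 1, with 10.05 and 5.34 unchallenged, 13.59 and 7.08 with G418, and 5.14 and 5.27 in F3. Pig1, whose name stands for pre-intermoult gene, was at 6.58 and 4.08 unchallenged, 12.12 and 6.14 with G418 and 4.10 and 3.97 in F3. Along this stretch the pattern therefore changed between Pig1 and Sgs4, which had the Sgs pattern. ng4, between ng1 and Pig1, was dim on every array, so its own pattern is not resolved. CG10793 was at or below 4.40 on all 6 arrays.

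At the stretch with Sgs8, Sgs7 and Sgs3 the outer genes did not share the glue pattern. Vha16-2, which encodes a proton pump subunit, lay between 3.67 and 4.23 on the side of Sgs8, and 2 genes between them are not analysed here. CG7512, next to Sgs3, lay between 3.86 and 4.38. CG33272 lies between Sgs7 and Sgs3 and was chosen after its values were seen. Its values lay between 5.42 and 6.08, with its highest on an F3 array.

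Beside Sgs5, both neighbours were highest on G418 replicate 1, then on G418 replicate 2 and unchallenged replicate 2, as Sgs5 was. Sgs5bis, a close relative of Sgs5, was at 4.60 and 8.07 on the unchallenged arrays, 11.66 and 9.65 with G418 and 4.48 and 4.46 in F3. CG7606 was at 7.22 and 8.59, 13.05 and 9.94, and 6.96 and 7.34 on the same arrays. Its likeness to Sgs5 was looser. On unchallenged replicate 2 CG7606 was 1.62 above the F3 array without past exposure, Sgs5bis 3.60 and Sgs5 4.83. Beside Sgs1, hoe2 was at 5.59 and 5.44 unchallenged and 7.15 and 5.99 with G418, and synr stayed between 3.35 and 3.71.

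**Figure D3:**
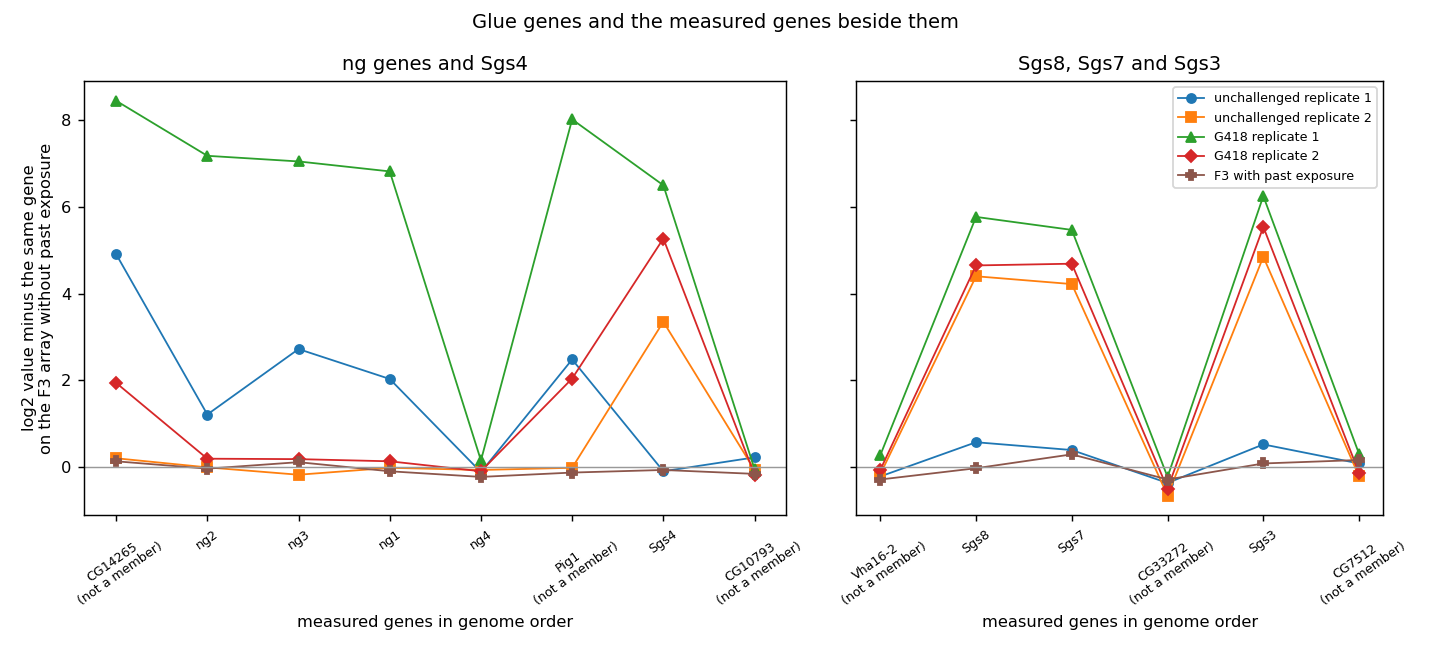
Log2 value minus the same gene's value on the F3 array without past exposure (vertical axis) for measured genes in genome order (horizontal axis, evenly spaced, not to scale), with 1 line per array. On the left, CG14265, ng2, ng3, ng1 and Pig1 are high on G418 replicate 1 and Sgs4 on 3 arrays. On the right, Sgs8, Sgs7 and Sgs3 are high on the same 3 arrays and the genes between and beside them stay within 1 log2 unit of 0.

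Of 10 other salivary gland genes listed, 8 were measured, 7 had a positive and 1 a negative log2 change with G418, and 0 passed the test, with a median of 2.19. Eig71Ee, an ecdysone-induced gene with a mucin-like secreted product of the gland, had the Sgs pattern, with 6.63 and 10.68 unchallenged, 13.64 and 12.31 under G418, and 6.46 and 6.36 in F3. The transcription factor gene sage, known for its role in salivary gland secretory genes, was at 5.68 and 6.52 unchallenged, 10.88 and 6.84 with G418 and 5.29 and 5.10 in F3. Highest on G418 replicate 1 were 7 of the 8, again without a share over all probe sets. The list's summed linear signal, as log2, was 9.72 and 11.48 unchallenged, 14.49 and 12.70 with G418, and 10.35 and 10.40 in F3. In F3 most of this sum was fkh, described below, which alone read 10.10 without and 10.16 with past exposure. Every other measured gene of the list was lower on both F3 arrays than on unchallenged replicate 1. The part of the listed genes in the glue gene values was not tested.

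PH4alphaSG1 and PH4alphaSG2, prolyl hydroxylase genes of the salivary gland named after their values were seen, were at 6.59 and 7.74 on G418 replicate 1, and at or below 3.78 and 4.57 on the other arrays. Both were therefore highest on the same array as ng1, ng2 and ng3. On unchallenged replicate 1 they were 0.16 and 0.63 above the F3 array without past exposure, against 2.02, 1.21 and 2.72 for ng1, ng2 and ng3. fkh, which encodes a fork head factor needed in both foregut and salivary gland, went the other way, with its lowest value of 8.44 on G418 replicate 1 and its highest of 10.16 in F3 larvae with past exposure. eyg lay between 4.24 and 4.82.

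Likeness to the glue genes was measured as the mean absolute difference, over the 6 arrays, between a gene's centred log2 profile and the median centred profile of the members. For all 10 members together the 6 nearest non-member genes were Sgs5bis at 0.44, CG31698 at 0.50, CG15404 at 0.58, Eig71Ee at 0.66, CG12715 at 0.69 and CG34279 at 0.72. The median gene was at 2.22, and members lay between 0.23 and 2.16. For the Sgs profile the nearest were Sgs5bis at 0.42, Eig71Ee at 0.44 and CG31698 at 0.69, and for the ng profile CG17362 at 0.21, CG18649 at 0.29 and CG13461 at 0.33.

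The genes nearest to a profile were chosen by likeness to it, so that they share its pattern is no separate result. CG17362 was at 11.73 on G418 replicate 1, 6.11 on unchallenged replicate 1 and at or below 4.36 on the other 4 arrays. CG18649 was at 11.66, 5.85 and at or below 4.05 on the same arrays. CG31698, near the Sgs profile, was at 5.62 and 7.17 on the unchallenged arrays, 11.53 and 10.33 with G418 and 5.65 and 5.44 in F3, so unchallenged replicate 2 was less raised than for Sgs3.

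**Figure D4:**
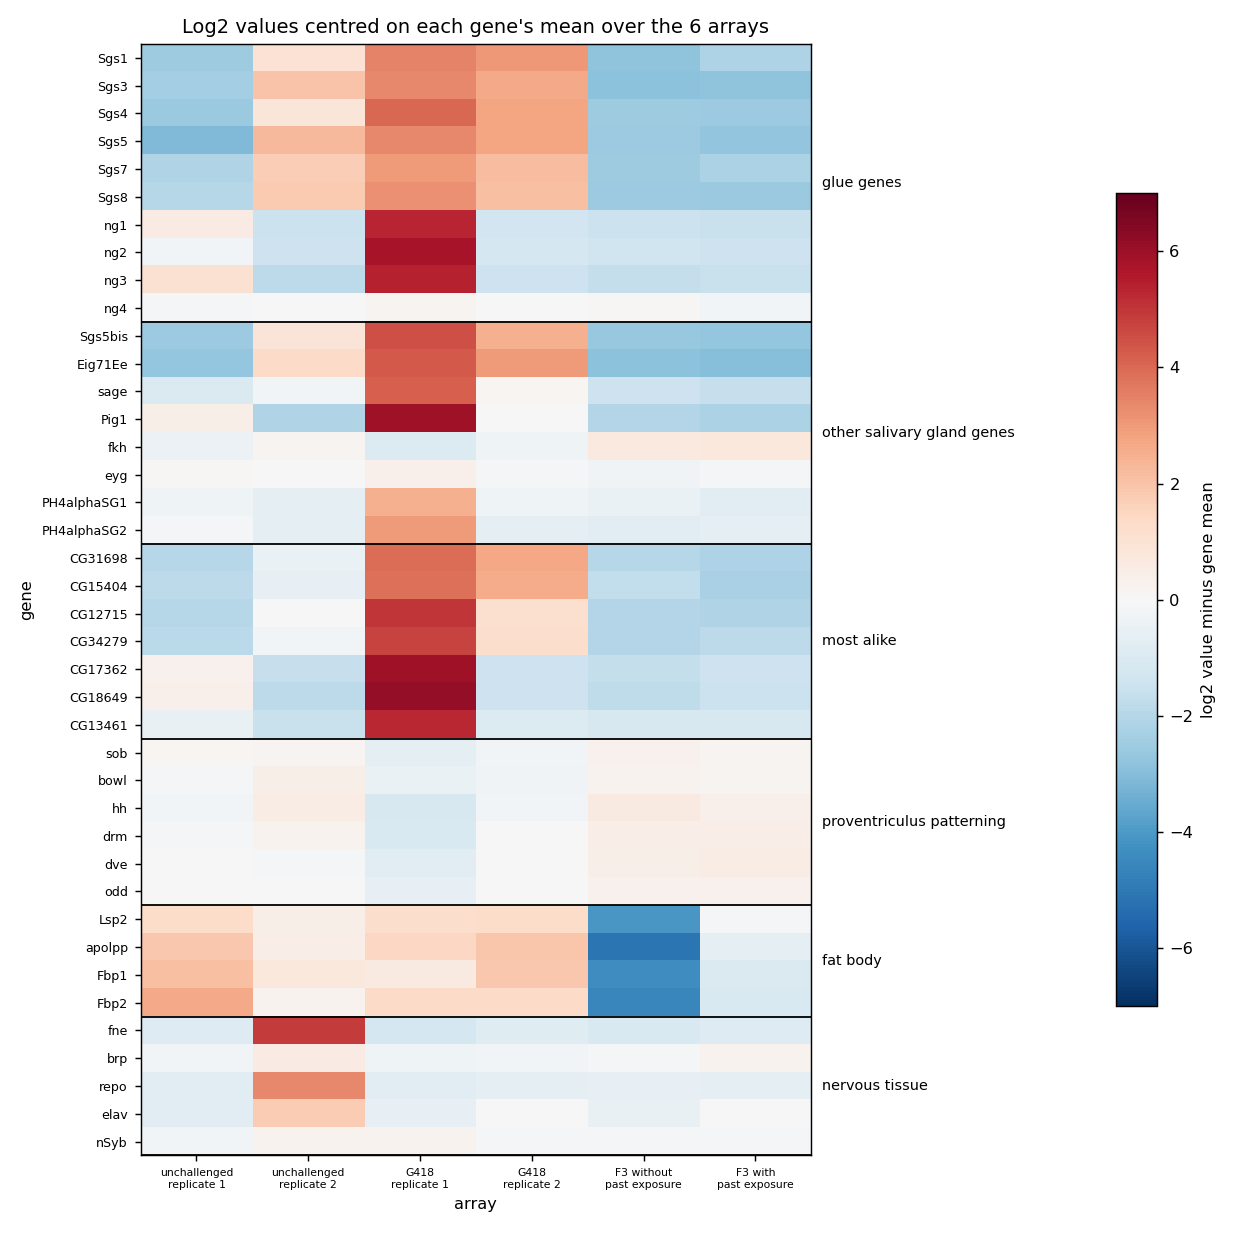
Log2 values centred on each gene's mean over the 6 arrays (colour, red above and blue below the mean) for the glue genes, other salivary gland genes, the genes most alike, and markers of proventriculus patterning, fat body and nervous tissue (rows) on the 6 arrays (columns). On G418 replicate 1 every glue gene is above its mean, ng4 by little, and all 6 patterning genes are at their lowest.

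A further list held ecdysone receptors, ecdysone-induced regulators and other ecdysone-responsive genes. Of 15 listed, 12 were measured, 3 had a positive and 9 a negative log2 change with G418, and 0 passed the test. The ecdysone receptor gene EcR lay between 7.68 and 8.18 on the 6 arrays. br encodes the Broad factors needed for glue gene activation. It read 10.67 and 11.68 unchallenged, 9.98 and 11.09 under G418, and 11.45 and 10.97 in F3. Its lowest value was on the array where the Sgs genes were highest. Its highest was on unchallenged replicate 2, where the Sgs genes were also high. The nuclear receptor gene ftz-f1 was at 4.73 and 4.66, 5.49 and 5.99, and 4.73 and 6.16, with a change of 1.04 ± 0.22 (SE, limma adjusted p = 0.788).

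E23, an ecdysone-induced transporter gene, was at -0.75 ± 0.18, Hr39 at -0.75 ± 0.26 and Eip93F at -2.27 ± 0.94 (log2 change ± SE, each with a limma adjusted p of 0.788). Eip93F, a later ecdysone-induced regulator, was at 3.38 on G418 replicate 1 and 5.12 to 7.28 elsewhere. Its lowest value thus fell on the array with both kinds of glue gene high, and its highest on unchallenged replicate 2, where the Sgs genes were also high. The Eig71E genes, which answer ecdysone in the salivary gland after the glue genes, were listed without Eig71Ee, described above with the Sgs pattern. The 8 measured of these 10 lay at or below 5.27 on every array, with 5 positive and 3 negative changes and 0 passing. Eig71Eg was at 4.91 and Eig71Ed at 4.34 on unchallenged replicate 1 and both were at or below 3.45 elsewhere. Eig71Ei was at 0.20 ± 0.17 and Eig71Ej at 0.14 ± 0.17 with G418 (log2 change ± SE).

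Enzymes of mucin-type O-glycosylation, which attach sugars to mucins such as the Sgs proteins, did not follow the glue genes as a list. All 10 were measured, 4 with a positive and 6 with a negative change, 0 passing, and a median of -0.02. Pgant9, whose product is known to glycosylate Sgs3, was between 11.27 and 11.67. C1GalTA was at -0.44 ± 0.18 with G418, Pgant6 at 0.29 ± 0.16 and Pgant4 at 0.34 ± 0.27 (log2 change ± SE). Pgant1, named after its values were seen, read 10.12 on G418 replicate 1 and 8.32 to 8.61 elsewhere.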

How the data were processed

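RNA of larval proventriculi was hybridised to 6 Affymetrix Drosophila 2.0 arrays. RMA in Affymetrix Expression Console gave the deposited log2 values, as the submitters' processing notes state; the sources used here give no version and do not say whether arrays were normalized jointly. Of 18952 probe sets, 183 controls were left out. Probe sets were named through the platform annotation with symbols updated by gene identifier to RefSeq (assembly Release 6), which also gave gene order: 13647 had 1 symbol, 402 several and 4720 were unnamed here. Where a gene had several probe sets, the one with the highest mean over the 6 arrays was used. Arrays have no count or depth, so their number limits the precision.

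G418 and unchallenged arrays (2 against 2) were compared with limma 3.58.1 (lmFit, eBayes; R 4.3.3) and Benjamini-Hochberg adjustment over 18769 probe sets, threshold 0.05. The fit was tested on simulated data. F3 arrays were described without a test. Lists and members were described by counts and medians. Members, lists and rules were chosen with earlier results of these data known. Named were all members, the 4 genes of each list with the smallest p, fkh, sage, Pig1, EcR and br, the nearest measured neighbours, and the genes most alike. CrebA is not analysed here. Alternatives covered the replicate block, left-out arrays, normalization, variance prior, dim probe sets, choice of probe set and threshold. Sequences were not used here.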

Additional observations from a re-analysis of the deposited data

How the results depend on the processing

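In limma 0 glue genes were called under each of the 11 alternatives. The count of probe sets called, 0 in the reported fit, ranged from 0 to 251 with 1 array left out (251 with unchallenged replicate 1 omitted, 4 with replicate 2 omitted, the lone array being assumed to vary like the other group), and was 1 with an intensity trend in the variance prior and 1 at a threshold of 0.1. With the replicate number as a block 0 probe sets were called (2187 at an unadjusted p under 0.05, lowest adjusted p 0.177) and 0 glue genes. The medians, 3.34 for Sgs and 2.41 for ng genes, cannot change under this block, since each group holds each number once. Pairing by number is not stated in the labels, and deviations of same-numbered arrays from their group means correlated at 0.32 over all probe sets.

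With 1 array left out, the median log2 change ranged from 1.65 to 4.67 for all glue genes, 0.95 to 5.57 for the Sgs genes and -0.64 to 5.80 for the ng genes. The Sgs median minus the ng median, 0.94 in the reported fit, ranged from -2.64 (without unchallenged replicate 1) to 4.40 (without unchallenged replicate 2) and was -2.11 without G418 replicate 2. The same ranges were -0.88 to 5.81 for ng1, -0.41 to 6.57 for ng2, -1.09 to 5.78 for ng3 and -0.01 to 0.24 for ng4, lowest without G418 replicate 1 and highest without G418 replicate 2. Of 97 values of single glue genes under alternatives, 93 kept direction and stayed uncalled, and the 4 negative ng values turned. The block, the intensity trend and the filter on dim probe sets cannot alter a log2 change in this design. The mean of all probe sets altered none of the glue genes' changes. In these settings only the call could differ. Under a further quantile normalization, median centring and the mean of all probe sets, the Sgs median stayed between 3.33 and 3.35. Under these the F3 median of the glue genes stayed between -0.04 and -0.02. The filter on dim probe sets left ng1, ng2 and ng4 untested. With 2 arrays a group, and 1 array each in F3, levels below the lower quartile (ng1, ng2 and ng4) have no resolved order.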
